A study of Ictidomys tridecemlineatus with 15 samples.

Results

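The supraoptic nucleus was compared between 2 warm states of the thirteen-lined ground squirrel (Ictidomys tridecemlineatus), a seasonal hibernator. The first group was active, that is, not hibernating. The second was in interbout arousal (IBA), the rewarmed interval between bouts of torpor within the hibernation season. Each state was represented by 5 libraries of bulk RNA-seq, so 10 of the 15 libraries of the series were compared, and the 5 libraries from torpid animals of the same season are given beside them. All genes with a normalised value of at least 1 in at least 5 of the 15 libraries were followed, which kept 15501 of 16993. The nuclei were dissected by hand from vibratome slices of the brain, and each library is described in the study design as a biological replicate. Age, sex, body temperature and sampling date were not given in the labels used here, so season and any of these cannot be told apart. All 3 states carried the same tissue label and library protocol, and no allele or agent was named.

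The supraoptic nucleus is a hypothalamic nucleus of large magnocellular neurons, which make vasopressin or oxytocin and release the hormone from axon endings in the posterior pituitary. It senses blood osmolality and is known for the heavy load it puts on the secretory pathway, because a peptide hormone enters the endoplasmic reticulum, is folded and cut there and in later compartments, and leaves in dense granules. A hibernator spends most of the season in torpor with a low body temperature, and returns at intervals to a warm body and an awake brain. The comparison of IBA with active animals therefore asks what differs in the nucleus between warm states that differ in season and in recent torpor.

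Genes listed for the magnocellular neurons of the labelled tissue were detected, as were markers of neighbouring nuclei given further on. All 16 magnocellular identity genes listed were tested, and Caprin2, an RNA-binding protein that binds vasopressin mRNA in the rat, measured 363 to 534 normalised CPM (the read count of a gene scaled to library size, not to gene length) in active and 241 to 462 in IBA libraries. Of 14 magnocellular neuropeptides listed, 12 were tested, while Avp and Oxt were not analysed here under those symbols. The active libraries held 15844561 to 21216931 reads assigned to genes, the IBA libraries 19320883 to 23621875, and the torpor libraries 21570371 to 26113341. In a principal component analysis of the 10 libraries the first component took 32.1% of the variance and put all 5 active libraries (-52.0 to -2.67) below all 5 IBA libraries (10.3 to 29.5). Active library 4 stood apart at -52.0, the next active library being at -11.1. Where a call was lost without it, the adjusted p of that fit is given, with libraries named by state and number (Active 4). Changes written as "rose by" or "fell by" are on the log2 scale, IBA minus active.

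The change between the warm states was small in number and in size. At a limma adjusted p under 0.05, 202 of 15501 genes differed, or 1.30% of those tested, of which 93 were higher in IBA (0.600%) and 109 lower (0.703%). Among the higher genes were Rlbp1, a carrier of retinaldehyde, Rbm3, a cold-inducible RNA-binding protein, and Slc16a1, a carrier of lactate and ketone bodies. Among the lower genes were some of those that fold proteins in the endoplasmic reticulum or bring them into it. Several others are known from astrocytes and were picked after their values were seen, while none of 11 listed astrocyte markers was called. Other called genes known from glia, such as Rlbp1 and Cntf, were higher. Only 30 of the 202 genes differed by at least 1 on the log2 scale, 16 upward and 14 downward, and 88 differed by less than 1.5-fold. The median absolute log2 difference was 0.64 over the called genes and 0.17 over all genes tested.

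The libraries of the 2 states did not overlap for 187 of the 202 called genes, against 7.01% of all genes tested. The genes were called on these same libraries, so this separation is no independent support. The median log2 difference over all genes tested was 0.00 and 50.6% of them lay above 0, so neither direction prevailed. At an unadjusted p under 0.05 there were 3046 genes. By the same test, torpor differed from active in 3018 genes (19.5%) and from IBA in 455 (2.94%), comparisons that share libraries with the present comparison. In bulk tissue, fewer cells of a type and less RNA per cell cannot be told apart, and this holds for every level that follows. How many genes were called varied with the library left out, and each such fit has fewer libraries. With 1 library left out, the number of calls ranged from 26 without IBA library 4 to 162 without IBA library 2, and was 57 without active library 4. The others left 91, 71, 64 and 154 calls (active 1, 2, 3 and 5) or 98, 60 and 116 (IBA 1, 3 and 5). No called gene changed direction in any of these fits. For the 187 genes without overlap this was fixed in advance, so it is no support for the calls.

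**Figure D1:**
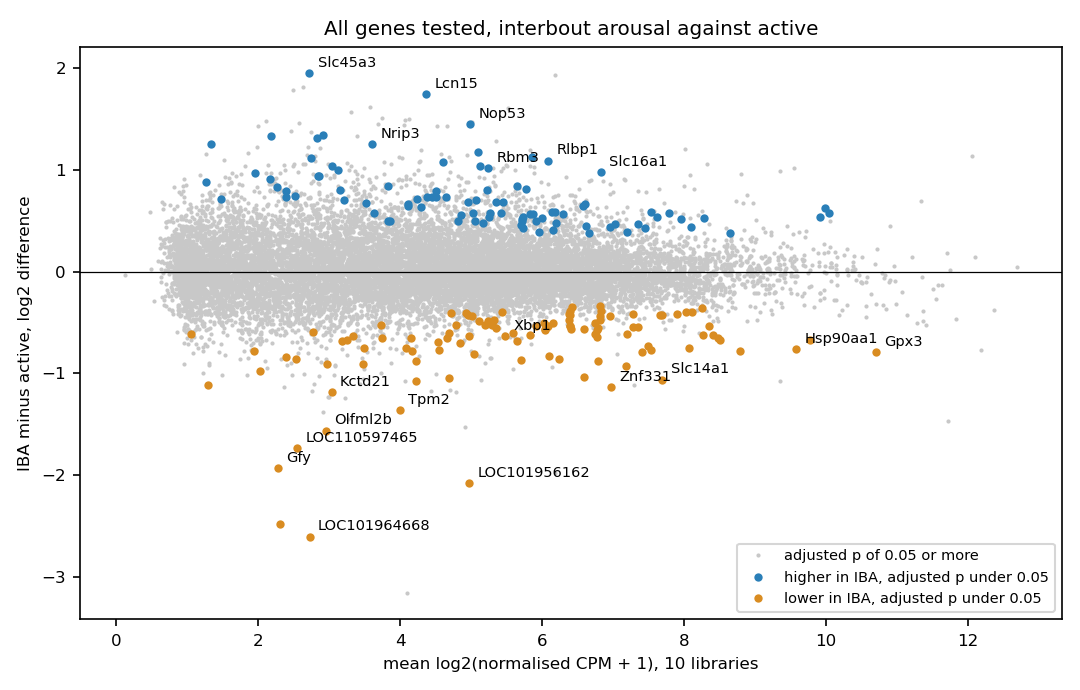
Each point is a gene, with its mean log2(normalised CPM + 1) over the 10 libraries on the x axis and its log2 difference, IBA minus active, on the y axis. Blue points (93) were higher and orange points (109) lower in IBA at an adjusted p under 0.05, and most lie within 1 log2 unit of the line at 0.

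A set of 23 genes was called whichever of the 10 libraries was left out, 10 higher and 13 lower in IBA. This set was picked after the values were seen and is described without a further test. Rlbp1, which encodes the retinaldehyde-binding protein of the visual cycle and is also known from glia, measured 57.1, 43.9, 37.9, 47.7 and 42.6 normalised CPM in the active libraries and 90.9, 83.02, 103, 128 and 90.8 in the IBA libraries. Every IBA library stood above every active library, and the log2 difference was 1.09 (SE 0.13, limma adjusted p = 0.000775). Rbm3, whose protein binds RNA and is made at a higher rate in mild cold, measured 20.02, 29.7, 26.2, 27.8 and 24.9 in active and 53.2, 57.4, 59.4, 48.8 and 45.2 in IBA. The lowest IBA library was well above the highest active library, with a log2 difference of 1.01 (SE 0.14, limma adjusted p = 0.00193). By their labels, both groups were sampled outside torpor. Slc16a1, encoding the monocarboxylate transporter MCT1, measured 74.6, 84.4, 65.8, 125 and 61.8 in active and 136, 153, 181, 161 and 163 in IBA. Active library 4 was the highest of its group but remained below the lowest IBA library, and the log2 difference was 0.98 (SE 0.15, limma adjusted p = 0.00399).

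The other stable rises covered several functions. Nrip3 measured 8.81, 6.27, 8.595, 4.95 and 6.51 normalised CPM in active and 21.2, 11.7, 16.3, 23.8 and 18.5 in IBA, a log2 difference of 1.25 (SE 0.19, limma adjusted p = 0.00399) with no overlap. Wdr1, which takes actin filaments apart together with cofilin, measured 42.8, 46.9, 40.00, 31.6 and 42.2 and 79.5, 69.5, 65.2, 69.8 and 73.7, and its log2 difference was 0.81 (SE 0.12, limma adjusted p = 0.00399). Plk2, a kinase induced by neuronal activity that weakens synapses, measured 53.7, 54.5, 38.6, 45.9 and 44.5 and 80.7, 65.2, 67.5, 62.1 and 78.2, and its log2 difference was 0.57 (SE 0.11, limma adjusted p = 0.0204). All 3 genes had no library of one state within the range of the other. Mean levels rose from 76.7 to 122 for Atxn10, the gene whose repeat expansion causes an ataxia in humans, from 5.73 to 10.8 for the PHD finger gene Phf7 and from 25.8 to 41.9 for R3hcc1. Lyz, encoding lysozyme, measured 1.08, 0.761, 0.928, 0.241 and 0.313 in active and 1.91, 2.26, 4.82, 2.32 and 3.86 in IBA. It passed the filter of 1 through IBA and torpor libraries, where it was high, so its call is not counted as support.

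Among the stable falls, Slc14a1, the urea transporter UT-B, measured 289.8, 345, 295, 274 and 292 normalised CPM in active and 113, 232, 142, 103 and 152 in IBA. IBA library 2 was the highest of its group and still below every active library, and the log2 difference was -1.06 (SE 0.16, limma adjusted p = 0.00399). Znf331, a zinc finger gene, measured 208, 213, 173, 178 and 162 in active and 94.5, 79.95, 86.5, 59.5 and 106 in IBA, a log2 difference of -1.14 (SE 0.14, limma adjusted p = 0.000872). Colgalt2, which attaches galactose to collagen, measured 30.6, 27.00, 20.7, 30.1 and 23.2 and 11.1, 12.1, 12.4, 10.6 and 12.99. Its IBA libraries lay close together and all below the active ones, with a log2 difference of -1.08 (SE 0.17, limma adjusted p = 0.00515). Mthfd2, an enzyme of mitochondrial folate metabolism and a known target of the transcription factor ATF4, measured 79.1, 63.8, 88.1, 64.5 and 56.1 and 42.7, 32.9, 40.4, 32.96 and 40.7. No library overlapped, and the log2 difference was -0.86 (SE 0.15, limma adjusted p = 0.0116). Slc25a18, a mitochondrial glutamate carrier, fell from a mean of 352 to 208, by 0.75 (SE 0.12, limma adjusted p = 0.00425). Kctd12, an auxiliary subunit of GABA-B receptors, fell from 90.5 to 50.6, by 0.83 (SE 0.14, limma adjusted p = 0.0079).

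**Figure D2:**
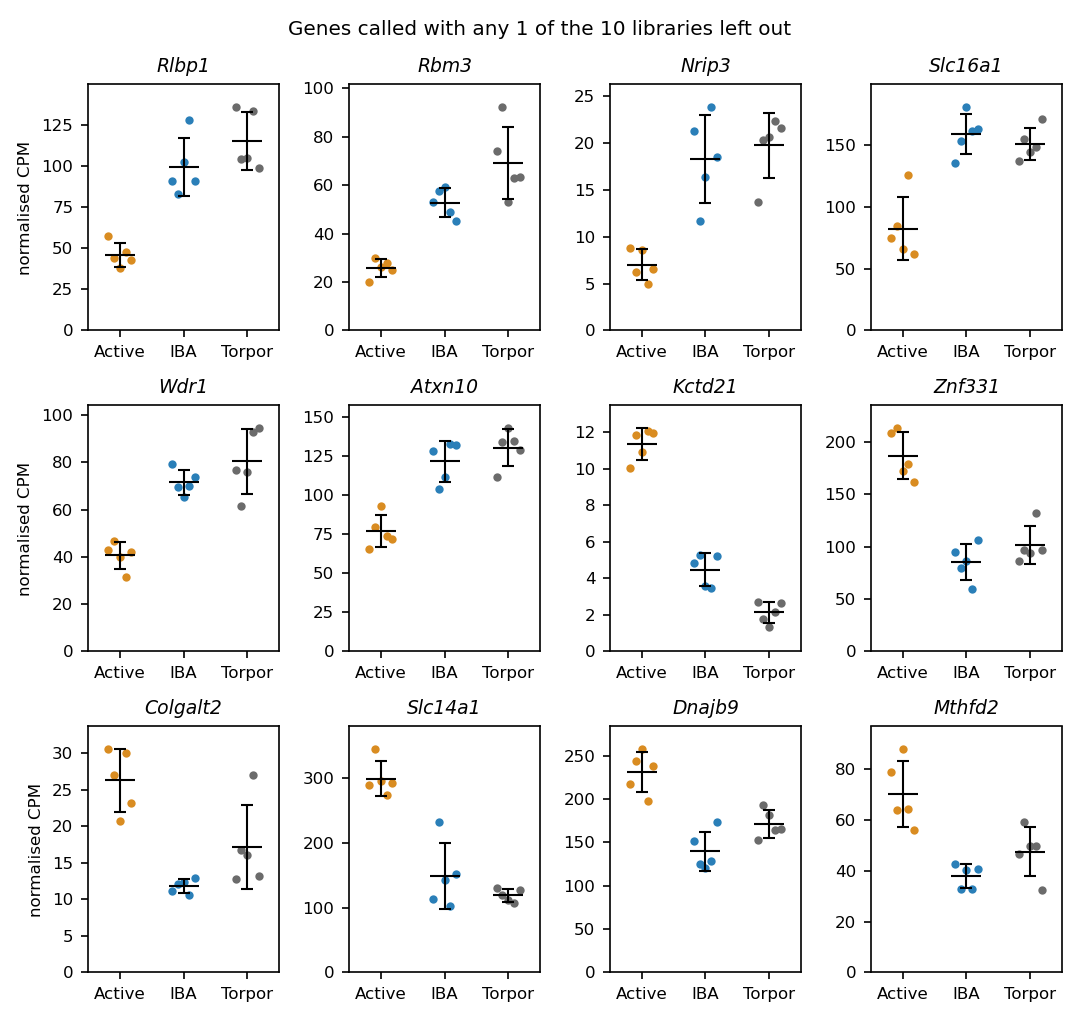
Normalised CPM of 12 of the 23 genes called with any 1 of the 10 libraries left out, by state. Points are libraries, bars the mean ± SD (n = 5), and each axis starts at 0. In none of the 12 does an active library lie within the range of the IBA libraries, and for all but Kctd21 the torpor libraries overlap the IBA range.

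Of the genes of the unfolded protein response, 6 of 24 tested fell in IBA and 18 did not pass the test. This response is the set of sensors, transcription factors and chaperones by which a cell matches the folding capacity of its endoplasmic reticulum to the load of secreted proteins. No member rose, and the called share was 25.0% against the 1.30% called among all genes tested. The median log2 difference of the list was -0.39, against 0.00 for all genes tested, and 20 of the 24 were below 0. The list was written with earlier results of these data known.

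Dnajb9, the co-chaperone ERdj4 that regulates the sensor IRE1, measured 218, 244, 258, 198 and 238 normalised CPM in active and 152, 125, 120.4, 128 and 173 in IBA. No library overlapped, the log2 difference was -0.73 (SE 0.11, limma adjusted p = 0.00399), and the call held with any library left out. Xbp1, the transcription factor whose mRNA IRE1 splices, measured 45.2, 49.5, 58.5, 72.1 and 51.1 in active and 35.6, 42.00, 34.8, 31.5 and 31.03 in IBA. The highest IBA library lay just below the lowest active library, and the log2 difference was -0.63 (SE 0.12, limma adjusted p = 0.0204). Atf4, the transcription factor translated when the eIF2-alpha arm is active, measured 97.4, 98.6, 113, 102 and 102 and 83.6, 69.7, 72.4, 60.3 and 61.6, again without overlap, and fell by 0.56 (SE 0.11, limma adjusted p = 0.0208). Manf, a secreted trophic factor that resides in the endoplasmic reticulum, measured 118, 140.1, 147, 142 and 129 and 101, 74.3, 82.5, 80.6 and 95.99, and fell by 0.64 (SE 0.12, limma adjusted p = 0.0214). Creld2, a folding factor induced with Manf, fell from a mean of 101 to 56.1, a log2 difference of -0.86 (adjusted p = 0.0364) by limma. Herpud1, a component of the degradation of misfolded proteins, fell from 129 to 98.4, a log2 difference of -0.39 (adjusted p = 0.0364) by limma.

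The chaperones that the response is best known for did not pass the test. Hspa5, the central chaperone BiP, measured 2201, 2706, 2668, 2847 and 2683 normalised CPM in active and 2104, 1526, 1796, 1867 and 2544 in IBA. IBA library 5 lay within the active range, and the log2 difference was -0.43 (SE 0.15, limma adjusted p = 0.137). Hsp90b1 differed by -0.35 (adjusted p = 0.114) and Ddit3, the stress factor CHOP, by -0.27 (adjusted p = 0.307), both by limma. The calls of 5 of the 6 genes did not hold in every fit with 1 library left out, and such fits have fewer libraries. With 1 library left out the call was lost for Xbp1 without Active 3 or IBA 4 (up to 0.0693), Atf4 without Active 2, Active 3 or IBA 4 (up to 0.0693) and Manf without Active 2, Active 3, Active 4, IBA 3 or IBA 4 (up to 0.0693, and 0.0526 without Active 4), the highest adjusted p being in parentheses. It was also lost for Creld2 in all fits but that without IBA 1 or IBA 5 (up to 0.0991, and 0.0705 without Active 4) and Herpud1 in all fits but that without Active 1 (up to 0.0991, and 0.0749 without Active 4). The list had 1 to 7 called members when 1 library was left out (a single one without active library 3 or IBA library 4) and 13 by limma-voom. Without active library 4 the list had 3 called members and a median of -0.38.

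Some genes of the machinery that brings proteins into the endoplasmic reticulum and attaches sugars to them fell as well. A list of its signal recognition, translocon, signal peptidase and oligosaccharyltransferase genes was written after some of these genes had been seen to fall. It is therefore no independent evidence of the direction or of the share called. Of 36 members tested, 6 fell and none rose, against the 1.30% called among all genes tested. The other 30 did not pass the test, 34 of the 36 were below 0, and the median log2 difference was -0.28. Ssr2, a subunit of the translocon-associated protein complex, measured 113, 125, 112, 108 and 122 normalised CPM in active and 82.9, 75.7, 77.4, 73.1 and 82.3 in IBA. The groups did not overlap, the log2 difference was -0.56 (SE 0.10, limma adjusted p = 0.0107), and the call held with any library left out. Dad1, a subunit of the oligosaccharyltransferase, measured 290.4, 305, 308, 376 and 311 and 251, 234, 229, 239 and 250.5, and fell by 0.40 (SE 0.08, limma adjusted p = 0.0312). Its highest value was in active library 4. Sec61g, the gamma subunit of the translocon channel, fell from a mean of 197 to 135, a log2 difference of -0.54 (adjusted p = 0.0326) by limma. Ostc, another oligosaccharyltransferase subunit, fell from 187 to 128, a log2 difference of -0.54 (adjusted p = 0.0397) by limma. Mlec, a lectin that reads newly added sugars, fell from 393 to 270.0, a log2 difference of -0.53 (adjusted p = 0.0242) by limma. Rrbp1, a ribosome receptor of the rough endoplasmic reticulum, fell from 42.99 to 29.8, a log2 difference of -0.52 (adjusted p = 0.0493) by limma. Fkbp2, a prolyl isomerase of the same compartment that is on neither list and was chosen after its values were seen, measured 364, 366, 367, 379 and 427 and 258, 245, 239, 248 and 243. It fell by 0.62 (SE 0.09, limma adjusted p = 0.00399), with no overlap, and held with any library left out.

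The channel subunit Sec61a1 went the other way in mean, at a log2 difference of 0.96 (adjusted p = 0.283) by limma, which did not pass the test. Leaving out 1 library ended the call for Dad1 in all fits but that without Active 1, Active 5 or IBA 5 (up to 0.0844, and 0.0727 without Active 4) and Sec61g in all fits but that without Active 1, IBA 1 or IBA 5 (up to 0.0941, and 0.0791 without Active 4), the highest adjusted p being in parentheses. The same applied to Ostc in all fits but that without Active 1 or IBA 5 (up to 0.11, and 0.0749 without Active 4), Mlec without Active 2, Active 3, Active 4, IBA 3 or IBA 4 (up to 0.0792, and 0.0555 without Active 4) and Rrbp1 with any library left out (0.05 to 0.124, and 0.0877 without Active 4). Without active library 4 the list had 1 called member and a median of -0.27.

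Cytosolic heat shock chaperones had a similar median. These proteins fold and refold proteins outside the secretory pathway and are induced through heat shock factor 1. Of 22 members tested, 2 fell and none rose, against the 1.30% called among all genes tested. In all, 20 were below 0, and the median log2 difference was -0.35. Hsp90aa1, the inducible cytosolic HSP90, measured 1009.9, 898, 1095, 1237 and 804 normalised CPM in active and 556, 518, 562, 586 and 734 in IBA, and fell by 0.76 (SE 0.17, limma adjusted p = 0.0345). Stip1, which couples HSP70 to HSP90, measured 426, 405, 541, 460.5 and 401 and 301, 237, 286, 258 and 343, and fell by 0.65 (SE 0.13, limma adjusted p = 0.0242). Neither gene had overlapping libraries. Ppid, a cyclophilin partner of HSP90 that is not on the list and was chosen after its values were seen, fell from a mean of 133 to 87.2, a log2 difference of -0.61 (adjusted p = 0.0405) by limma. Hspa8, the constitutive HSP70, differed by -0.47 (adjusted p = 0.113) and Hspa1a, the inducible one, by -0.96 (adjusted p = 0.471), both by limma and both with overlapping libraries. Calls that ended with 1 library left out were those for Hsp90aa1 in all fits but that without Active 5 or IBA 5 (up to 0.0906, and 0.0824 without Active 4), Stip1 without Active 2, Active 3, Active 4, IBA 3 or IBA 4 (up to 0.0792, and 0.0555 without Active 4) and Ppid in all fits but that without IBA 5 (up to 0.11, and 0.0918 without Active 4), the highest adjusted p being in parentheses. Without active library 4 no listed member was called and the median was -0.32.

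**Figure D3:**
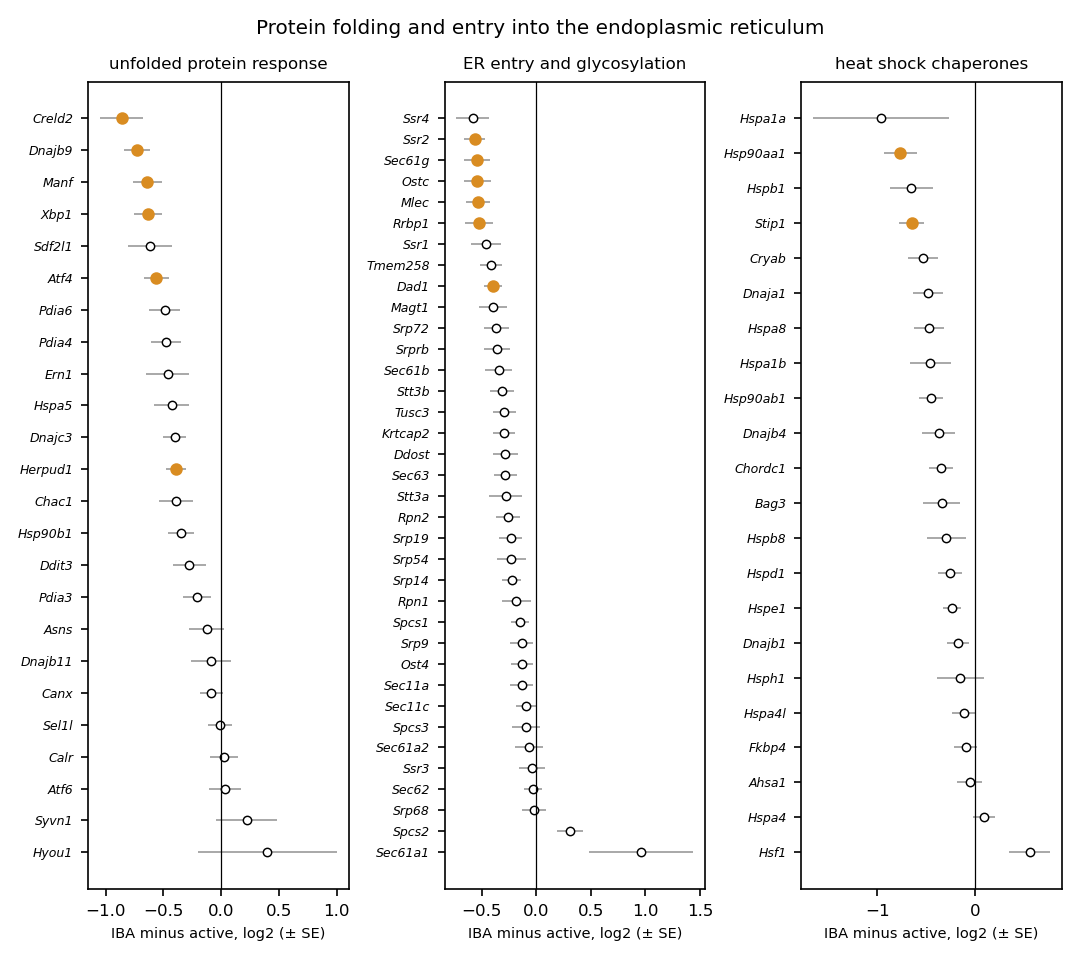
Log2 difference, IBA minus active, of every tested member of 3 lists (unfolded protein response 24, entry into the endoplasmic reticulum and glycosylation 36, heat shock chaperones 22). Bars are ± SE from the limma fit and filled points have an adjusted p under 0.05. Filled points (6, 6 and 2) all lie left of 0, and 20, 34 and 20 members of the lists lie there in all.

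Of the cold-inducible RNA-binding proteins, Rbm3 passed the test and Cirbp did not. Cirbp measured 152, 193, 199, 128 and 199 normalised CPM in active and 250.4, 256, 232, 227 and 203 in IBA, and the libraries did not overlap. Its log2 difference was 0.44 (SE 0.12, limma adjusted p = 0.076). Of 24 SR proteins and hnRNPs, which set splice sites, none was called, 19 were below 0 and the median log2 difference was -0.19. None of 9 kinases of SR proteins was called, the smallest p being that of Dyrk1b at 0.75 (adjusted p = 0.126) and then of Clk1 at -0.29 (adjusted p = 0.248), both by limma. None of 30 LSM and RNA decay factors was called at a median of 0.01. Among these Lsm4, a subunit of the ring that binds the ends of decaying mRNA, measured 7.14, 7.32, 6.45, 4.10 and 4.69 and 21.4, 8.57, 10.4, 42.4 and 36.7. All IBA libraries were higher but spread widely, and the log2 difference was 1.62 (SE 0.54, limma adjusted p = 0.131). Ago2, the slicer of small RNA silencing, was chosen after its values were seen. It fell from a mean of 36.5 to 26.7, a log2 difference of -0.44 (adjusted p = 0.0214) by limma, and the call was lost for Ago2 without Active 2, Active 3, Active 4, IBA 3 or IBA 4 (up to 0.0693, and 0.0526 without Active 4).

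Kctd21 and Banp were lower in both hibernating states. Kctd21, a BTB protein that hands substrates to the cullin 3 ubiquitin ligase, measured 10.03, 11.8, 10.9, 12.1 and 11.96 normalised CPM in active, 4.83, 5.27, 3.58, 3.49 and 5.23 in IBA and 2.71, 1.77, 1.35, 2.18 and 2.67 in torpor. The 3 states did not overlap. The log2 difference of IBA to active was -1.19 (SE 0.16, limma adjusted p = 0.00193), and that of torpor to IBA was -0.81 (adjusted p = 0.0138) in the same limma fit. Banp, a nuclear protein that binds unmethylated CGCG motifs in promoters, measured 35.1, 41.2, 47.1, 40.02 and 51.6 in active, 24.8, 25.3, 18.7, 29.5 and 22.03 in IBA and 8.74, 7.71, 11.4, 13.9 and 11.8 in torpor. These states did not overlap either. IBA differed from active by -0.81 (SE 0.16, limma adjusted p = 0.0204), and torpor from IBA by -1.11 (adjusted p = 0.00118).

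Of 30 genes tested from a list of cullin 3 BTB adaptors, 3 fell and 1 rose (13.3% called against 1.30% of all genes). The median log2 difference was -0.08. Kctd12, counted among the falls, is the GABA-B receptor subunit given above and is not described here as a cullin 3 adaptor. Besides Kctd21 and Kctd12, Spop, an adaptor known for its mutations in prostate cancer, fell from a mean of 238 to 177, by 0.43 (SE 0.09, limma adjusted p = 0.0326). Kctd10, another adaptor, rose from 76.2 to 119, by 0.64 (SE 0.15, limma adjusted p = 0.0471). Of 54 histone modifiers, 2 rose and none fell (3.70% called against 1.30% of all genes), and the median was -0.04. Hdac3, the deacetylase of the NCoR complex, measured 47.7, 53.6, 37.4, 41.2 and 50.7 in active and 68.3, 69.6, 58.3, 70.7 and 74.5 in IBA. Its states did not overlap and the log2 difference was 0.56 (SE 0.10, limma adjusted p = 0.0204). Kdm4a, which removes methyl groups from lysines of histone H3, measured 28.9, 28.6, 31.6, 29.2 and 34.1 and 44.1, 45.3, 46.8, 43.7 and 49.3, with tight groups and a log2 difference of 0.57 (SE 0.12, limma adjusted p = 0.0242). Among fits with 1 library left out, the call was lost for Banp without Active 2, Active 3 or IBA 3 (up to 0.0564), Hdac3 without IBA 4 (up to 0.0652) and Kdm4a in all fits but that without Active 5, IBA 1 or IBA 2 (up to 0.0693, and 0.0555 without Active 4), the highest adjusted p being in parentheses. Further losses were seen for Spop in all fits but that without IBA 2 or IBA 5 (up to 0.0793, and 0.0749 without Active 4) and Kctd10 in all fits but that without IBA 2 (up to 0.111, and 0.0969 without Active 4).

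The 12 largest rises among called genes with a symbol and a mean of at least 2 on the log2 scale and no overlap between the states included several genes known from oligodendrocytes and neurons. Slc45a3, a sugar transporter known from oligodendrocytes in the mouse, measured 1.76, 1.70, 1.42, 3.20 and 4.57 normalised CPM in active and 12.6, 17.6, 9.40, 14.6 and 7.90 in IBA. Its log2 difference of 1.95 (SE 0.35, limma adjusted p = 0.0204) was the largest of the 12. Klk6, a secreted serine protease also known from oligodendrocytes, measured 34.6, 25.1, 42.5, 38.6 and 55.6 and 58.2, 98.2, 76.3, 124 and 78.9, a log2 difference of 1.13 (SE 0.23, limma adjusted p = 0.0255). Hpca, the neuronal calcium sensor hippocalcin, measured 25.99, 9.96, 16.8, 14.003 and 15.4 and 34.4, 28.6, 31.5, 52.9 and 28.1, with IBA library 4 far above the rest and a log2 difference of 1.07 (SE 0.23, limma adjusted p = 0.0324). In all 3 genes the lowest IBA library exceeded the highest active library.

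Lcn15, a lipocalin, rose from a mean of 10.8 to 40.2 with a spread of 17.99 to 58.9 in IBA, a log2 difference of 1.74 (adjusted p = 0.0439) by limma. Nop53, a factor of ribosome assembly, rose from 19.5 to 54.02, a log2 difference of 1.45 (adjusted p = 0.0486) by limma. Agtrap, which binds the type 1 angiotensin II receptor and promotes its removal from the membrane, measured 5.38, 5.39, 4.40, 1.57 and 3.19 in active and 11.2, 11.8, 11.6, 11.2 and 9.32 in IBA. It rose by 1.34 (SE 0.30, limma adjusted p = 0.0375), and active library 4 was the lowest of its group. The secreted C1qtnf4 rose from 2.07 to 6.43, the membrane protein Tmc6 from 3.75 to 10.7 and Parvb, an adaptor of focal adhesions, from 3.56 to 9.11. Tab1, which activates the kinase TAK1, rose from 22.5 to 50.9, a log2 difference of 1.17 (adjusted p = 0.0345) by limma. Nrip3 and Rlbp1 complete the 12 and held with any library left out. With 1 library left out the call was lost for Slc45a3 without Active 2 or IBA 4 (up to 0.0652), Klk6 in all fits but that without Active 5, IBA 1, IBA 2 or IBA 5 (up to 0.0791, and 0.0563 without Active 4) and Parvb without Active 2, Active 3, Active 4, IBA 3 or IBA 4 (up to 0.0693, and 0.0526 without Active 4), the highest adjusted p being in parentheses. It was also lost for Hpca in all fits but that without Active 1, IBA 2 or IBA 5 (up to 0.0877, and 0.0789 without Active 4), Lcn15 in all fits but that without IBA 5 (up to 0.111, and 0.0859 without Active 4) and Nop53 in all fits but that without IBA 2 (up to 0.126, and 0.0918 without Active 4). Calls also ended for Tab1 in all fits but that without Active 5 (up to 0.0991, and 0.0814 without Active 4), Tmc6 in all fits but that without Active 5 (up to 0.125, and 0.0918 without Active 4), C1qtnf4 in all fits but that without Active 1 (up to 0.126, and 0.0908 without Active 4) and Agtrap with any library left out (0.0502 to 0.0991, and 0.0807 without Active 4).

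Of the 12 largest falls among called genes chosen in the same way, Gfy had the greatest log2 difference. Gfy, a Golgi protein of olfactory neurons in the mouse, measured 8.86, 7.32, 11.5, 5.79 and 9.76 normalised CPM in active and 1.42, 0.942, 1.54, 2.05 and 1.56 in IBA, and fell by 1.93 (SE 0.43, limma adjusted p = 0.0402). It overlaps Pth2 in the reference annotation. Olfml2b, a secreted protein of the olfactomedin family, measured 10.9, 20.96, 8.99, 13.1 and 10.5 and 4.41, 5.79, 4.38, 1.44 and 2.89, and fell by 1.56 (SE 0.29, limma adjusted p = 0.0204). Tpm2, a tropomyosin of smooth and skeletal muscle, measured 25.9, 23.1, 18.9, 49.2 and 15.9 and 9.24, 13.04, 13.2, 5.53 and 6.29, and fell by 1.36 (SE 0.26, limma adjusted p = 0.0214). Active library 4 had the highest Tpm2 value, and the libraries of the 2 states did not overlap for any of the 3 genes. Smooth muscle genes on the mural list did not pass the test, with Myh11 at -0.92 (adjusted p = 0.113) and Acta2 at -0.94 (adjusted p = 0.116) by limma. The summed level of 11 tested mural markers was 405 to 513 normalised CPM in active and 370.1 to 592 in IBA, and its part in the Tpm2 result was not tested.

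Grpr, the receptor of gastrin-releasing peptide, measured 184, 134, 139, 118 and 117 in active and 106, 45.7, 67.2, 47.4 and 82.2 in IBA, and fell by 1.03 (SE 0.23, limma adjusted p = 0.0402). Ip6k3, an inositol phosphate kinase, fell from a mean of 4.83 to 2.02, a log2 difference of -0.98 (adjusted p = 0.0389) by limma. Kctd21, Znf331, Colgalt2, Slc14a1, Ccdc103, Crem and Id3 complete the 12. Leaving out 1 library ended the call for Gfy with any library left out (0.0654 to 0.0906, and 0.0674 without Active 4), Olfml2b without Active 2 or IBA 4 (up to 0.0637) and Tpm2 without Active 2 or IBA 4 (up to 0.0693), the highest adjusted p being in parentheses. The same applied to Grpr in all fits but that without IBA 1 (up to 0.11, and 0.0727 without Active 4) and Ip6k3 in all fits but that without IBA 2 or IBA 3 (up to 0.0865, and 0.0563 without Active 4).

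The astrocyte marker list had no called member. Of 11 astrocyte markers tested, 9 were below 0 and the median log2 difference was -0.17. Gfap, the intermediate filament of astrocytes, measured 5825, 7078, 3481, 8493 and 4558 normalised CPM in active and 1104, 4662, 3008, 1681 and 1292 in IBA. Of the 5 IBA libraries, 4 lay below all active libraries and library 2 lay within their range. The log2 difference was -1.47 (SE 0.42, limma adjusted p = 0.0912), and the gene passed the threshold in 1 of the 10 fits with a library left out, that without IBA library 2, at 0.0493. Aqp4, the water channel of astrocyte endfeet, differed by -0.43 (adjusted p = 0.243) and Slc1a2, the glutamate transporter GLT-1, by 0.67 (adjusted p = 0.325), both by limma. The summed level of the astrocyte markers was 11819 to 19789 in active and 8521 to 15633 in IBA libraries.

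Outside this list, some called genes known from glia, or noted beside them, fell. Others known from glia rose, among them Rlbp1 by 1.09, Cntf by 0.84, and Slc45a3 and Klk6 of oligodendrocytes. The choice of all these genes followed from the values, and no test covers them as a group. Besides Slc14a1 and Slc25a18, S100a1, a calcium-binding protein, measured 512, 455, 391, 536 and 424 in active and 256, 339, 304, 334 and 225 in IBA, and fell by 0.68 (SE 0.13, limma adjusted p = 0.0204). Etnppl, a lyase of phosphoethanolamine, measured 455, 383, 388, 512 and 387 and 212, 378, 299, 238 and 269.6. IBA library 2 was again the highest of its group and just below the active range, and the log2 difference was -0.62 (SE 0.14, limma adjusted p = 0.0364). Fgfr3, a fibroblast growth factor receptor, fell from a mean of 80.8 to 55.5, a log2 difference of -0.55 (adjusted p = 0.0453) by limma. Bbox1, the last enzyme of carnitine synthesis, fell from 134 to 90.6, a log2 difference of -0.55 (adjusted p = 0.0486) by limma. Rpe65, which turns retinyl esters into 11-cis-retinol in the visual cycle, fell from 151 to 83.6, a log2 difference of -0.88 (adjusted p = 0.0364), in the direction opposite to Rlbp1. Calls that ended with 1 library left out were those for S100a1 without Active 2 or Active 4 (up to 0.0526, without Active 4), Etnppl in all fits but that without Active 5 or IBA 2 (up to 0.106, and 0.0897 without Active 4) and Fgfr3 in all fits but that without Active 5 or IBA 2 (up to 0.111, and 0.0907 without Active 4), the highest adjusted p being in parentheses. Further losses were seen for Bbox1 in all fits but that without IBA 2 (up to 0.12, and 0.101 without Active 4) and Rpe65 in all fits but that without Active 5 or IBA 2 (up to 0.0991, and 0.0897 without Active 4).

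The locus with the largest fall among the calls, LOC101964668, lies beside Gfap in the reference annotation, which names it Fam187a. It measured 14.2, 24.5, 11.4, 21.004 and 9.83 normalised CPM in active and 0.333, 3.86, 2.54, 1.63 and 1.29 in IBA. No library overlapped, the log2 difference was -2.60 (SE 0.30, limma adjusted p = 0.000751), and the call held with any library left out. Ccdc103, a factor of dynein arm assembly in cilia, measured 12.4, 18.4, 13.2, 17.1 and 11.1 and 7.53, 5.23, 7.71, 6.79 and 8.63, and fell by 0.91 (SE 0.16, limma adjusted p = 0.0116). The reference annotation places Dnaaf19, the current name of the human orthologue of Ccdc103, on the other side of Fam187a. Reads of neighbouring genes cannot be told apart where transcripts run into each other and the strand setting is unknown.

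Among markers of other cell types that the dissection could hold, 1 was called, the blood marker Hba1 given further on. Of 14 oligodendrocyte markers tested, 12 were above 0 and the median log2 difference was 0.60, the highest of any list. Mag, a myelin adhesion protein, measured 41.3, 37.4, 35.7, 5.37 and 31.6 normalised CPM in active and 54.4, 82.6, 78.4, 127 and 67.3 in IBA. Active library 4 was far below the rest, and the log2 difference was 1.61 (SE 0.51, limma adjusted p = 0.115). Ugt8, which makes the myelin lipid galactosylceramide, differed by 0.50 (adjusted p = 0.0864) and Cnp, a myelin enzyme, by 0.96 (adjusted p = 0.168), both by limma. The summed level of these markers was 3018 to 5408 in active and 3701 to 9558 in IBA libraries, and up to 14678 in torpor. Its range reached higher in IBA, where Slc45a3 and Klk6 were higher too. Its part in those rises was not tested. Of 9 precursor markers, 7 were above 0 and the median was 0.57.

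Microglia (10 tested, median 0.26), endothelial (13, 0.11), mural (11, -0.24) and meningeal fibroblast markers (10, -0.31) had no called member. Without active library 4 the meningeal median turned to 0.17, the mural median was -0.04 and 1 microglia marker was called. Without active library 3 the endothelial median was -0.02. By limma-voom with quality weights the meningeal median was 0.10. The 4 ependymal and choroid plexus markers tested had a median of -0.66, with a summed level of 31.9 to 89.3 normalised CPM in active and 15.8 to 32.4 in IBA. None of 14 neuron markers was called, at a median of 0.11. Their summed level was 7107 to 8925 in active and 6919 to 8289 in IBA libraries. Markers of neighbouring hypothalamic nuclei (15 tested) had a median of 0.22 and no call.

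Of 5 blood markers tested, 1 fell in IBA and none rose (20% called against 1.30% of all genes). The median log2 difference was -0.21. LOC101956162, which the reference names Hba1, an alpha globin, measured 96.9, 87.4, 31.4, 86.3 and 44.8 normalised CPM in active and 17.9, 15.4, 28.6, 9.16 and 7.90 in IBA. Active library 3 was the lowest of its group at just above the highest IBA library, and the log2 difference was -2.08 (SE 0.36, limma adjusted p = 0.0204). LOC101969569, which the reference leaves unnamed, measured 15.9, 17.7, 3.86, 17.9 and 6.45 and 1.54, 1.08, 3.93, 0.511 and 0, and fell by 2.49 (SE 0.45, limma adjusted p = 0.0204) with IBA library 3 just above active library 3. Its unnamed neighbour LOC101967841 measured 87.4, 81.8, 16.8, 95.5 and 26.4 and 7.62, 5.93, 19.99, 3.81 and 0, a log2 difference of -3.16 (SE 0.72, limma adjusted p = 0.0504). Alas2, the heme synthesis enzyme of red cell precursors, was at 2.06 in active and 0.727 in IBA on average, a log2 difference of -0.71 (adjusted p = 0.149) by limma. These genes were chosen after their values were seen, apart from Hba1 and Alas2, which are among the blood markers. Among fits with 1 library left out, the call was lost for LOC101956162 without Active 2, Active 4 or IBA 4 (up to 0.0652, and 0.0523 without Active 4) and LOC101969569 without Active 2, Active 4 or IBA 4 (up to 0.0693, and 0.0526 without Active 4), the highest adjusted p being in parentheses.

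Of the identity genes and neuropeptides listed for magnocellular neurons, 1 was called. Of 12 neuropeptides none was called, at a median log2 difference of 0.02, and Apln, which encodes the peptide apelin, had the smallest p at 0.65 (adjusted p = 0.14) by limma. LOC101970427, an unnamed locus beside Ubox5 in the reference, measured 3125, 4215, 4983, 880.4 and 3323 normalised CPM in active and 9001, 3381, 2751, 10169.5 and 11590.0 in IBA. Active library 4 was far below the others and the groups overlapped, with a log2 difference of 1.14 (SE 0.73, limma adjusted p = 0.418). Of 16 identity genes, 1 rose (6.25% called against 1.30% of all genes). Calb1, the calcium-binding protein calbindin, measured 235, 241, 279.7, 271 and 269.8 in active and 405, 349.8, 401, 369 and 347 in IBA. No library overlapped and the log2 difference was 0.53 (SE 0.10, limma adjusted p = 0.0208).

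Of 21 genes of the osmotic response, 1 rose and 1 fell (9.52% called against 1.30% of all genes), at a median of 0.07. Slc5a3, the inositol transporter by which cells take up an organic osmolyte in hypertonic conditions, measured 93.02, 71.7, 72.5, 92.2 and 74.5 normalised CPM in active, 49.1, 64.1, 51.97, 55.6 and 55.2 in IBA and 42.3, 39.8, 44.3, 37.6 and 46.7 in torpor. IBA lay below active without overlap, by 0.54 (SE 0.10, limma adjusted p = 0.0204). Torpor lay below IBA without overlap too, at a log2 difference of -0.38 (adjusted p = 0.0531) that did not pass the test. Slc4a10, a sodium-driven bicarbonate transporter, measured 113, 108, 115, 104 and 109 in active and 149, 137, 156, 147 and 170.0 in IBA, and rose by 0.46 (SE 0.10, limma adjusted p = 0.0275). Of the peptide processing enzymes and granins none of 21 was called. Pcsk1, the prohormone convertase PC1/3, measured 1202, 1019, 865, 1094 and 666 and 649, 268, 522, 376 and 546, a log2 difference of -1.07 (SE 0.28, limma adjusted p = 0.0679). With 1 library left out the call was lost for Calb1 without Active 2, IBA 3 or IBA 4 (up to 0.0652), Slc5a3 without Active 4, IBA 3 or IBA 4 (up to 0.0652, and 0.0526 without Active 4) and Slc4a10 in all fits but that without Active 5 or IBA 2 (up to 0.0727, and 0.066 without Active 4), the highest adjusted p being in parentheses.

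No channel or transmitter receptor list held a called member. This covered 34 potassium channels (median -0.02), 25 sodium, calcium and HCN channels (0.13), 35 glutamate and GABA receptors (0.03) and 26 genes of synaptic vesicle fusion (0.08). Outside the lists, 4 neuronal genes were picked after their values were seen. Htr2c, the serotonin 2C receptor, measured 42.9, 25.4, 33.3, 34.4 and 33.6 normalised CPM in active and 54.5, 54.3, 48.3, 62.9 and 52.1 in IBA, and rose by 0.68 (SE 0.12, limma adjusted p = 0.0197) without overlap. Chrm1, the muscarinic receptor M1, rose from a mean of 2.30 to 5.17, a log2 difference of 0.91 (adjusted p = 0.0402) by limma. Kcns1, a modifying subunit of Kv2 potassium channels, rose from 13.97 to 23.6, a log2 difference of 0.71 (adjusted p = 0.0337) by limma. Kif5a, a kinesin of axonal transport, rose from 833 to 1267, a log2 difference of 0.62 (adjusted p = 0.0493) by limma. Leaving out 1 library ended the call for Htr2c without IBA 4 (up to 0.0652), Chrm1 in all fits but that without IBA 5 (up to 0.11, and 0.0651 without Active 4), Kcns1 in all fits but that without Active 3, Active 5, IBA 1 or IBA 2 (up to 0.0991, and 0.0791 without Active 4) and Kif5a in all fits but that without Active 5 (up to 0.137, and 0.102 without Active 4), the highest adjusted p being in parentheses.

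Levels of the activity genes Fos and Arc varied within both warm states. None of 18 AP-1 and activity genes was called, at a median log2 difference of -0.09. Fos, the immediate early gene used to mark recently active neurons, measured 89.00, 122, 33.9, 104 and 51.1 normalised CPM in active and 169, 35.8, 38.4, 28.1 and 23.5 in IBA. IBA library 1 was above all active libraries while the other 4 IBA libraries lay in or below their range, and the log2 difference was -0.71 (SE 0.50, limma adjusted p = 0.456). Arc, an immediate early gene of synapses, measured 2.89, 8.55, 2.15, 1.69 and 3.07 and 40.5, 5.56, 4.82, 10.9 and 6.75, with the highest value in the same IBA library and a log2 difference of 1.37 (SE 0.48, limma adjusted p = 0.142). The difference of torpor to IBA was -1.86 (adjusted p = 0.0491) for Arc by limma. None of 10 clock repressors was called, 9 being above 0 at a median of 0.17. Ciart, a repressor of the clock, measured 8.81, 6.03, 6.69, 5.37 and 10.5 in active, 8.82, 7.44, 11.2, 12.4 and 10.01 in IBA and 34.7, 34.9, 20.7, 37.1 and 37.9 in torpor. The warm states overlapped, at 0.39 (SE 0.19, limma adjusted p = 0.272), while torpor lay above both, at 1.62 (adjusted p = 0.000191) against IBA. None of 14 clock activators and outputs was called, at a median of -0.08.

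Crem was the single called member of 26 CREB pathway genes (3.85% against 1.30% of all genes), whose median was -0.05. Crem, a cAMP-responsive factor whose gene also makes the repressor ICER, measured 53.1, 37.1, 25.4, 51.5 and 23.7 normalised CPM in active and 21.4, 13.9, 18.5, 16.04 and 16.1 in IBA, and fell by 1.04 (SE 0.20, limma adjusted p = 0.0204) without overlap. Id3, an inhibitor of basic helix-loop-helix factors and a BMP target, was the single called member of 20 BMP, Id and Hes genes (5%). It measured 202, 189.5, 151, 297 and 178 and 109, 149, 121, 77.6 and 79.7, and fell by 0.93 (SE 0.21, limma adjusted p = 0.0439), with its highest value in active library 4 and no overlap. Id1 differed by -0.84 (adjusted p = 0.0626) and Gdf10, a BMP family ligand, by 0.86 (adjusted p = 0.0884), both by limma and not called. The interferon pathway genes Ifih1 and Usp18, chosen after their values were seen, rose while none of 14 listed interferon and inflammatory genes was called. Ifih1, the RNA sensor MDA5, measured 12.6, 14.1, 11.3, 17.2 and 19.97 and 21.1, 19.5, 24.6, 29.5 and 23.5, a log2 difference of 0.64 (SE 0.15, limma adjusted p = 0.0408). IBA library 2 lay just below the highest active library. Usp18, which removes ISG15 from proteins, measured 3.93, 6.73, 3.57, 6.34 and 6.01 and 12.7, 8.43, 10.05, 13.02 and 13.1, a log2 difference of 0.99 (SE 0.21, limma adjusted p = 0.0275) with no overlap. Calls that ended with 1 library left out were those for Crem without Active 2 or IBA 4 (up to 0.0652) and Id3 in all fits but that without IBA 2 (up to 0.122, and 0.093 without Active 4), the highest adjusted p being in parentheses. It was also lost for Ifih1 in all fits but that without Active 5 or IBA 2 (up to 0.122, and 0.0555 without Active 4) and Usp18 in all fits but that without Active 4, Active 5 or IBA 2 (up to 0.0852).

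Fuel and redox genes changed in single members. Of 26 genes of the switch to fat and ketone fuel, Slc16a1 alone was called (3.85% against 1.30% of all genes). Their median log2 difference was 0.06. Of 22 cholesterol synthesis genes, Sqle, the squalene epoxidase, alone was called (4.55%). It measured 39.8, 33.2, 25.2, 27.8 and 28.98 normalised CPM in active and 44.5, 46.00, 36.4, 48.4 and 50.9 in IBA, and rose by 0.54 (SE 0.12, limma adjusted p = 0.0345), although IBA library 3 lay below active library 1. Of 22 antioxidant enzymes, Gpx3, the secreted glutathione peroxidase, alone was called (4.55%). It measured 1958, 2291, 2688, 2094 and 2018 and 1659, 1403, 1163, 1060.1 and 1147, and fell by 0.79 (SE 0.16, limma adjusted p = 0.0242) without overlap. Fth1, the heavy chain of the iron store ferritin, chosen after its values were seen, measured 908, 751, 939, 898 and 853 and 1261, 1281, 1136, 1541 and 1259.9, and rose by 0.57 (SE 0.11, limma adjusted p = 0.0204). Prkab2, a regulatory subunit of the energy sensor AMPK chosen in the same way, rose from a mean of 29.4 to 41.4, a log2 difference of 0.48 (adjusted p = 0.0326) by limma. None of 21 glycolysis genes was called, with Pfkl, the liver-type phosphofructokinase, closest at 0.74 (adjusted p = 0.0501) by limma. Among fits with 1 library left out, the call was lost for Sqle in all fits but that without Active 1 or IBA 3 (up to 0.0991, and 0.0804 without Active 4) and Gpx3 in all fits but that without Active 1, Active 5, IBA 1 or IBA 2 (up to 0.0824, and 0.0526 without Active 4), the highest adjusted p being in parentheses. The same applied to Fth1 without Active 2 or IBA 4 (up to 0.0693) and Prkab2 in all fits but that without Active 5, IBA 1 or IBA 2 (up to 0.0991, and 0.0555 without Active 4).

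Lists of the ribosome and the respiratory chain held 1 called gene. None of 74 cytosolic ribosomal proteins was called, 63 being below 0 at a median log2 difference of -0.13. None of 73 mitochondrial ribosomal proteins was called, at -0.11. Of 57 genes of oxidative phosphorylation 1 fell and none rose (1.75% called against 1.30% of all genes), at a median of -0.05. Ndufb11, a subunit of complex I, measured 125, 123, 133, 124 and 124 normalised CPM in active and 103, 93.2, 96.9, 93.9 and 109 in IBA, and fell by 0.34 (SE 0.08, limma adjusted p = 0.0375) without overlap, the smallest change of all calls. None of 36 translation initiation factors (-0.09) and 41 proteasome subunits (-0.07) was called. Tpt1, the translationally controlled tumour protein, was chosen after its values were seen and fell from 343 to 268, a log2 difference of -0.35 (adjusted p = 0.0379) by limma. With 1 library left out the call was lost for Ndufb11 in all fits but that without IBA 5 (up to 0.106, and 0.0727 without Active 4) and Tpt1 in all fits but that without IBA 1 (up to 0.0991, and 0.085 without Active 4), the highest adjusted p being in parentheses.

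**Figure D4:**
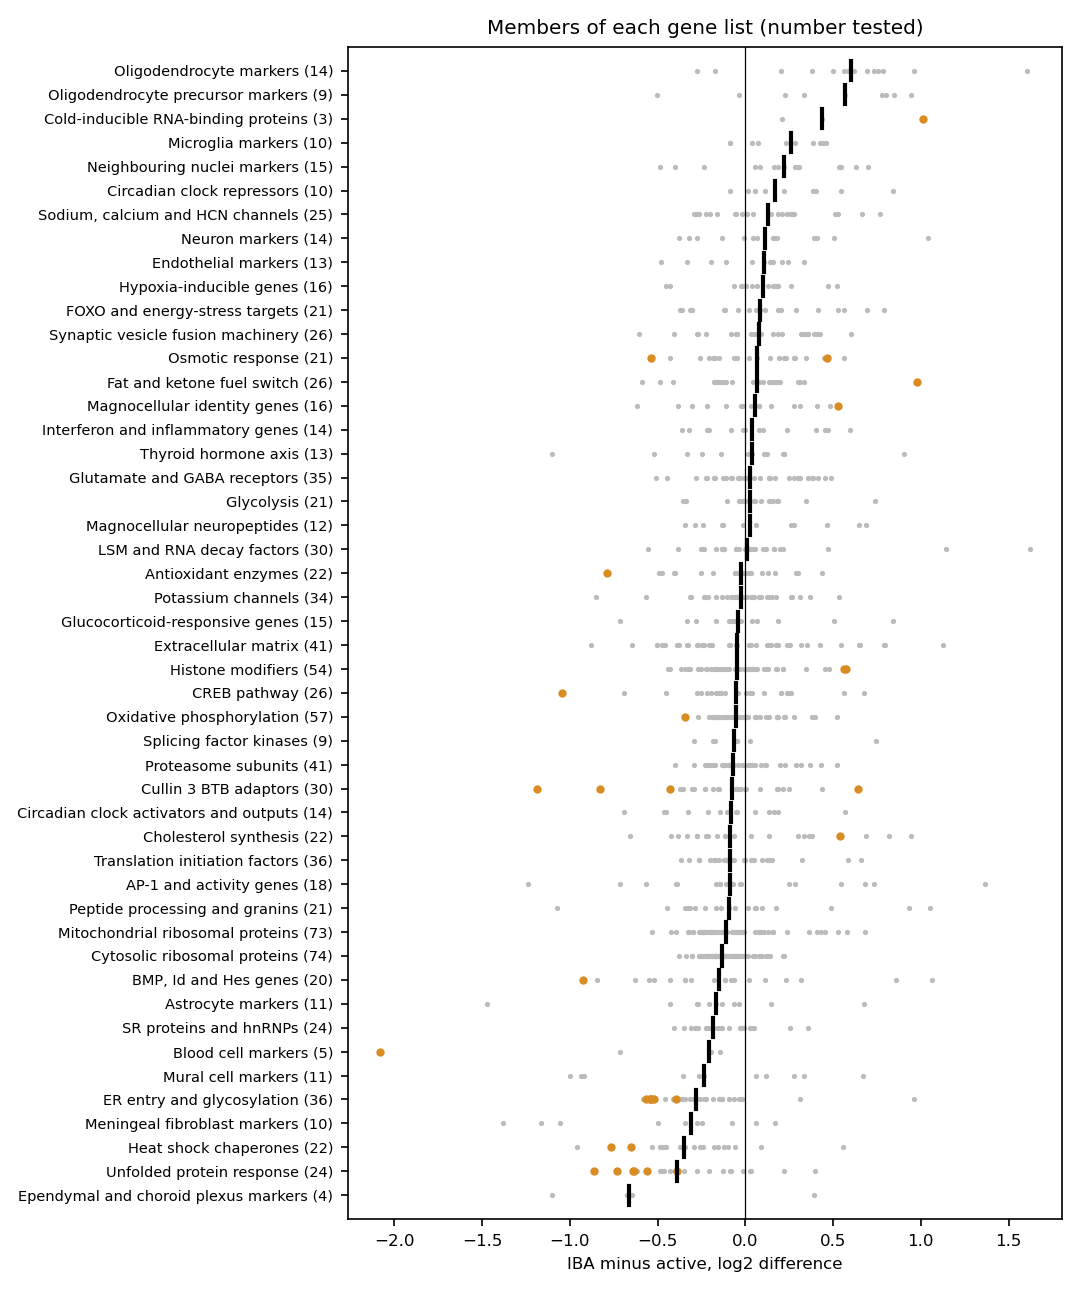
Log2 difference, IBA minus active, of every tested member of each gene list, with the number tested after the list's name and a black bar at the median. Orange points have an adjusted p under 0.05. The medians run from -0.66 to 0.60, and most orange points lie left of 0 in the unfolded protein response, heat shock and endoplasmic reticulum lists.

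The values in torpor are given beside the warm states. The comparisons share libraries, so their likeness is not counted as a result. For the unfolded protein response 7 of 24 members fell in torpor against active at a median of -0.16, beside 6 at -0.39 in IBA against active. Heat shock chaperones had 8 falls and 1 rise in torpor at -0.41, beside 2 falls at -0.35 in IBA. Oxidative phosphorylation had 19 rises in torpor at 0.21, beside 1 fall in IBA. The background was 19.5% of genes called in torpor against active.

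Of the 202 genes called in IBA against active, 8 also differed between IBA and torpor, beside 2.94% of all genes tested. Those given here were named after their values were seen. Manf measured 95.6, 144, 156, 143 and 117 normalised CPM in torpor, where it was 0.58 (adjusted p = 0.0206) above IBA on the log2 scale and -0.06 (adjusted p = 0.765) from active by limma. Ndufb11 measured 128, 129.8, 128, 124 and 109 in torpor, a log2 difference to IBA of 0.32 (adjusted p = 0.0335). Both genes were therefore lowest in IBA. Ccng2, a cyclin that slows the cell cycle and is a known FOXO target, measured 19.5, 22.6, 25.4, 19.9 and 27.8 in active, 31.8, 35.5, 36.5, 33.6 and 33.01 in IBA and 20.4, 18.2, 16.4, 13.96 and 16.2 in torpor. It was highest in IBA, with log2 differences of 0.56 (adjusted p = 0.0326) from active and -0.97 (adjusted p = 0.000332) from IBA to torpor. Ccng2 was not on the list of FOXO and energy-stress targets, of which none of 21 was called in IBA against active, at a median of 0.08. Kdm4a measured 39.2, 32.4, 34.1, 35.2 and 23.1 in torpor, -0.49 (adjusted p = 0.0315) from IBA, and Ifih1 15.2, 13.3, 14.9, 12.7 and 12.7, -0.73 (adjusted p = 0.0146) from IBA. Both were thus highest in IBA as well. Kiaa0408 measured 100.2 ± 7.08, 68.8 ± 6.80 and 53.2 ± 6.02 (mean ± SD, n = 5 each) in active, IBA and torpor, and was lower at each step, by limma at -0.54 (adjusted p = 0.0172) and then -0.37 (adjusted p = 0.0491). With 1 library left out the call of IBA against active was lost for Ccng2 in all fits but that without Active 5 (up to 0.0844, and 0.0791 without Active 4) and Kiaa0408 without IBA 4 (up to 0.0629), the highest adjusted p being in parentheses.

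**Figure D5:**
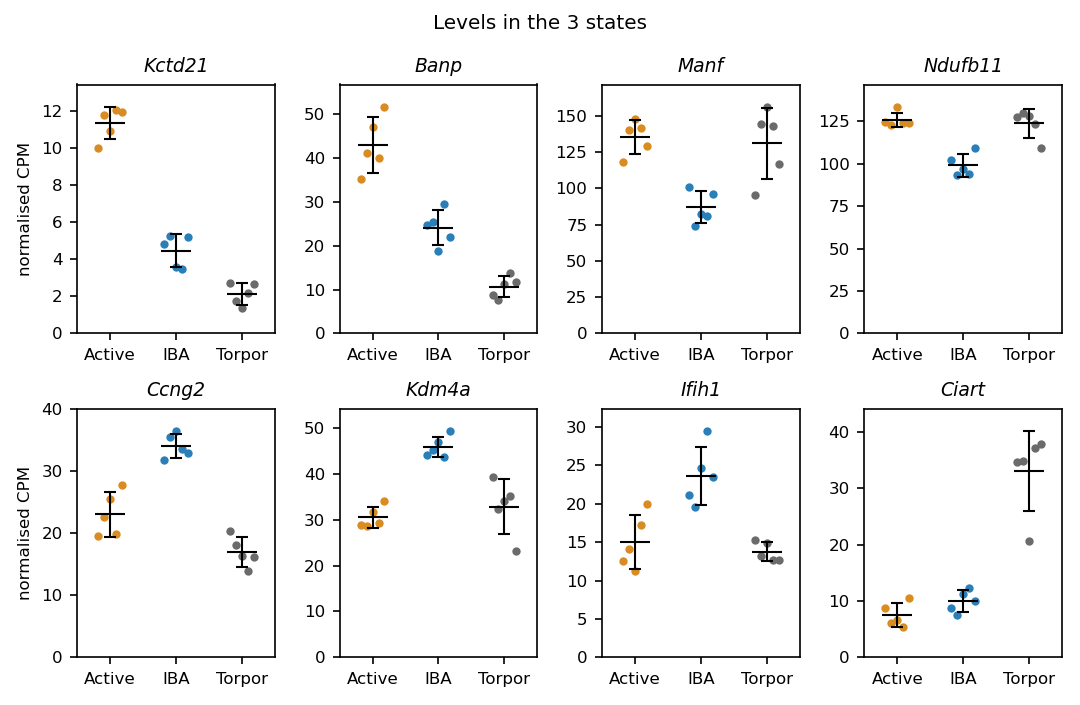
Normalised CPM of 8 genes in active, IBA and torpor libraries. Points are libraries, bars the mean ± SD (n = 5), and each axis starts at 0. Kctd21 and Banp were lower in IBA than in active and lower again in torpor, Manf and Ndufb11 were lowest in IBA, Ccng2, Kdm4a and Ifih1 were highest in IBA, and Ciart was high in torpor only.

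Loci without a symbol made up 18 of the 202 calls. Besides LOC101964668, the 3 with the smallest p are given. LOC110597465, a long non-coding RNA that overlaps Vac14 in the reference annotation, measured 13.7, 8.78, 8.50, 9.54 and 8.64 normalised CPM in active and 2.21, 2.496, 2.93, 2.09 and 1.51 in IBA. It had the smallest p of all genes, with no overlap and a log2 difference of -1.73 (SE 0.19, limma adjusted p = 0.000382), and held with any library left out. LOC101968283 measured 33.2, 29.1, 35.2, 31.1 and 28.7 and 51.5, 47.1, 44.7, 61.7 and 50.7, and rose by 0.68 (SE 0.12, limma adjusted p = 0.0159). LOC101964929 measured 2.40, 4.10, 1.86, 3.44 and 1.69 and 1.04, 1.13, 0.348, 0.418 and 0.505, and fell by 1.11 (SE 0.20, limma adjusted p = 0.017). All its active libraries but not all its IBA libraries reached the filter of 1, so its call is not counted as support. Neither of the last 2 loci had overlapping libraries, and the call was lost for LOC101968283 without IBA 4 (up to 0.0629) and LOC101964929 without IBA 4 (up to 0.0637). Some genes named above overlap another gene in the reference annotation, among them Kctd21 (Usp35), Slc16a1 (Lrig2), Hpca (Tmem54), Parvb (Prr5), C1qtnf4 (Mtch2), Cirbp (Fam174c), Slc5a3 (Mrps6) and Gpx3 (Tnip1). Without the strand setting, the reads of such pairs cannot be told apart.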

How the data were processed

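RNA-seq libraries of the supraoptic nucleus (5 active, 5 IBA and 5 torpor) were analysed from 1 deposited table. Its values are a signal, normalised CPM per the file headers, for which the authors divided reads by library size and by a further factor. The authors' log2 fold changes and mean log2 CPM, an F score that compares all 3 states at once, its p-value and its false discovery rate are deposited beside them. The submitters' processing notes name R 4.2.1, edgeR 3.38.4, Subread 2.0.1 with featureCounts, STAR 2.7.7a and Trimmomatic 0.39. For genome build, annotation and strand setting, the answer is not given in the sources used. Gene symbols in the table have 94.2% matches in the RefSeq gene table, used for names and neighbours only, with 335 unnamed loci given a symbol by gene ID.

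The values of each library were whole multiples of 1 step, so reads were recovered for 100% of values within 0.1 read. The factors ran from 1.008 to 1.043 for active libraries, from 0.999 to 1.041 for IBA libraries and from 0.936 to 0.990 for torpor libraries. Precision is limited by 5 libraries a state and by the depth of low genes. Of 16993 rows, 15501 reached 1 normalised CPM in 5 or more libraries and 1492 were removed. The 24 rows whose symbol had become a date were kept in the fit and are not named. The main test was limma 3.58.1 in R 4.3.3 on log2(value + 1), with trend and robust settings, all 15 libraries in 1 fit, two-sided and adjusted by Benjamini-Hochberg over all genes. Fold changes on this scale understate the change of low genes. Library sizes were not refitted. The scripts were tested on simulated data.

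Named genes were the 12 largest rises and falls among called genes with a symbol, a mean of at least 2 on the log2 scale and no overlap, the called members and up to 4 smallest p of each list, 10 genes chosen by name, and 4 loci without a symbol. Others were chosen after their values were seen, as was the list of entry into the endoplasmic reticulum. The members and the 47 other lists were chosen with earlier results of these data known. No list was tested. All 202 calls also had an authors' deposited FDR under 0.05 and the same sign in the authors' deposited table, which holds 2481 such genes. Replicate numbers in the labels were not shown to pair libraries, so the main fit has no block. Alternatives covered pseudocounts of 0.1 and 5, filters, scaling, edgeR 4.0.16 and DESeq2 1.42.0 on recovered reads, limma-voom, a replicate block and leaving out each library. The p-values measure the spread between animals as labelled.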

Additional observations from a re-analysis of the deposited data

Results flagged for a closer look

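Of 204 groups of 5 libraries checked (102 named genes in active and IBA), 13 held a library far from the other 4, its gap being above Dixon's critical value of 0.71 of the group's range. Chance flags about 1 group in 20. In IBA library 1, Fos was at 169 normalised CPM with the next library at 38.4, and Arc at 40.5 with the next at 10.9. Both are immediate early genes. In active library 4, the myelin gene Mag was at 5.37 with the next lowest at 31.6, and Dad1 at 375.8 with the next highest at 311. In active library 3, Atf4 was at 113 (next 102) and Ndufb11 at 133 (next 125). Arc was also high in active library 2, at 8.55 against 3.07. Fkbp2 was high in active library 5, at 427 against 379, and Azin2 in the same library, at 11.8 against 9.13. LOC110597465 was high in active library 1, at 13.7 against 9.54. Hpca was high in IBA library 4, at 52.9 against 34.4, and Lfng in IBA library 2, at 5.27 against 3.25. Agtrap was low in IBA library 5, at 9.32 against 11.2.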

How the results depend on the processing

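The 202 calls (93 rising, 109 falling) kept their direction under every alternative run. The alternatives refit the same values and the states did not overlap for most of these genes, so this was largely fixed in advance. The number of calls was within 1.5 times of 202 under other pseudocounts, filters and scalings, with edgeR on recovered reads, and with unnamed loci and dates left out, an alternative added after the data were seen, at 202 to 235. Fitting the 10 compared libraries alone gave 385 calls (203 rising, 182 falling), DESeq2 gave 862 (428 and 434) and limma-voom with quality weights 719 (295 and 424). The cause was not tested. Of the 202, 187 were called by edgeR, DESeq2 and limma-voom alike. Leaving out each library in turn gave 26 to 162 calls, 10 to 73 rising and 16 to 89 falling. Fewer libraries enter each of these fits. Of the 202 calls, 23 held in each of the 10 such fits, and all 23 are among the 92 called genes named here. Of those 92, 18 held in all 22 alternatives, while 2 loci without a symbol held in the 21 that they entered. With the replicate number as a block there were 37 calls (16 rising, 21 falling), 35 of them shared with the fit without it, and 21 of the 23 stable genes held. Same-numbered active and IBA libraries deviated with correlations of -0.16 to 0.19, and 1 active and 1 IBA library correlated best with its own number. Pairing was thus not shown, but so few libraries cannot exclude that those of the same number shared a day or batch. With 5 libraries a state, small differences in variable genes were not detectable, and low genes near 1 normalised CPM rest on few reads.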

Other observations

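Several called genes outside the lists are given as values, chosen after their values were seen. Polyamine synthesis had 2 calls in opposite directions. Odc1, ornithine decarboxylase, measured 12.5, 11.1, 11.5, 14.8 and 8.89 normalised CPM in active and 7.91, 7.82, 8.16, 6.83 and 5.28 in IBA, and fell by 0.64 (SE 0.15, limma adjusted p = 0.0472). Azin2, which binds the antizyme that inhibits this enzyme, measured 9.13, 8.73, 8.20, 8.45 and 11.8 and 13.2, 15.5, 15.1, 13.7 and 13.5, and rose by 0.57 (SE 0.13, limma adjusted p = 0.0364). Both had no overlapping libraries. Rarb, a retinoic acid receptor whose gene is itself a target of retinoic acid, measured 7.50, 4.10, 5.71, 9.42 and 4.63 and 3.12, 2.92, 3.43, 2.84 and 2.43, and fell by 0.84 (SE 0.19, limma adjusted p = 0.0397). With the retinoid genes Rlbp1 and Rpe65 it made 3 calls, 1 upward and 2 downward.

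Cntf, the ciliary neurotrophic factor made by glia, measured 8.18, 11.6, 9.13, 10.8 and 8.76 in active and 11.7, 23.7, 19.9, 24.5 and 13.9 in IBA. IBA library 1 lay just above the highest active library, and the log2 difference was 0.84 (SE 0.19, limma adjusted p = 0.0372). Lfng, a glycosyltransferase that modifies Notch receptors, measured 6.06, 8.32, 6.35, 7.48 and 5.95 and 3.25, 5.27, 2.98, 2.93 and 2.48, and fell by 0.86 (SE 0.17, limma adjusted p = 0.0214). Serpinh1, the collagen chaperone HSP47, measured 26.2, 35.5, 22.7, 43.9 and 24.5 and 14.6, 19.4, 18.6, 18.5 and 14.4, and fell by 0.77 (SE 0.17, limma adjusted p = 0.0378), while none of 41 extracellular matrix genes was called. Nnt, the mitochondrial enzyme that makes NADPH from NADH, measured 125, 133, 137, 140.1 and 154 and 179, 179, 176, 206 and 216, and rose by 0.47 (SE 0.11, limma adjusted p = 0.0402) without overlap. Leaving out 1 library ended the call for Odc1 in all fits but that without Active 5 (up to 0.118, and 0.107 without Active 4), Azin2 in all fits but that without Active 5 (up to 0.0898, and 0.0819 without Active 4) and Rarb in all fits but that without Active 2 or Active 5 (up to 0.0991, and 0.0908 without Active 4), the highest adjusted p being in parentheses. The same applied to Cntf in all fits but that without IBA 1 or IBA 5 (up to 0.11, and 0.0579 without Active 4), Lfng without Active 2, Active 4, IBA 3 or IBA 4 (up to 0.0693, and 0.0526 without Active 4), Serpinh1 in all fits but that without Active 3, Active 5 or IBA 2 (up to 0.0874, without Active 4) and Nnt in all fits but that without Active 5 (up to 0.111, and 0.0777 without Active 4).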
